A study of Homo sapiens with 6 samples.

Results

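The 10 drug- and lipid-metabolizing genes examined in KYSE70 cells and in an NRF2-edited clone of them were the carboxylesterases CES1 and CES2, the cytochromes P450 CYP4F11, CYP4F3, CYP4F12, CYP1A1, CYP1B1, CYP2S1 and CYP24A1, and the epoxide hydrolase EPHX1. They are 10 of the 58884 genes in the deposited table and were picked by symbol with their fold changes between the lines already known. Their differences between the lines are therefore given as a description. They were part of the fit across all genes, but no p-value is given for them, and the counts of those past its threshold support nothing. KYSE70 is a long-standing human cell line from a squamous cell carcinoma of the esophagus (ESCC) with a mutant NFE2L2, the gene of the transcription factor NRF2. NRF2null-KYSE70 is 1 clone of KYSE70, grown after CRISPR-Cas9 cutting of exon 2 of NFE2L2 left a frameshift. The study still saw a faint NRF2 protein band of lower size in this clone and shorter NFE2L2 transcripts in it. Cells of both lines were untreated and grew in RPMI1640 with fetal bovine serum, and RNA-seq was done on 3 libraries per line. With 1 clone, a difference between the lines cannot be told apart from a difference between clones. The labels call the libraries replicates without saying that they came from separate cultures, so their spread may be partly technical.

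These enzymes carry out the early steps of drug and lipid metabolism. Carboxylesterases cut ester and amide bonds, P450s insert oxygen with electrons passed on from NADPH, and epoxide hydrolases add water to the reactive epoxides that P450s can form. NRF2 binds antioxidant response elements together with small MAF proteins, whereas CYP1A1 and CYP1B1 are classical targets of the Ah receptor, which binds xenobiotic response elements with ARNT. CYP24A1, which inactivates vitamin D, is a target of the vitamin D receptor, and enzymes of the CYP4F subfamily hydroxylate the end carbon of fatty acids and leukotrienes.

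Reads assigned to genes numbered 52072801 to 63975313 per library, and values are normalized counts, that is, reads divided by 1 size factor per library. As a check of the labels, NFE2L2 itself had 9839, 9906 and 10040 normalized counts in the KYSE70 libraries and 5803, 6041 and 6434 in the NRF2null-KYSE70 libraries, so RNA of the edited gene was lower but far from absent. All 14 squamous epithelial markers examined had reads, and their summed level was 381611 to 388156 in KYSE70 and 289539 to 301783 in NRF2null-KYSE70. Because liver and intestine are rich in these enzymes, their markers were read too. The 9 hepatocyte markers summed to between 30.2 and 56.9 over the 6 libraries, with no read of ALB or TTR, and the 8 intestinal markers to between 12.5 and 47.9, with no read of CDX1, CDX2, FABP1, APOA4 or ALPI. The 7 fibroblast markers summed to 1384 to 1618 in KYSE70 and 485 to 638 in NRF2null-KYSE70, with no read of COL1A2 or DCN. Most of both sums was COL1A1, with means of 1232 and 554, and COL3A1 had 257 and 8.46. The 6 leukocyte markers summed to 1.78 to 15.8 in KYSE70 and 42.2 to 58.2 in NRF2null-KYSE70. Most of the latter sum was PTPRC alone, with 42.6, 40.2 and 47.9 normalized counts in NRF2null-KYSE70 against 0, 0 and 1.05 in KYSE70. The 5 endothelial markers summed to 137 to 159 and 293 to 499, with no read of KDR. Here VWF made up most, with means of 142 and 353, and TEK had 7.13 and 32.3. PTPRC, VWF, TEK, COL1A1 and COL3A1 were named after their values were seen. The part of these shifts in the results was not tested.

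Promoter sequences of the genes were read, because the transcription factors named above act through short letters near gene starts. RefSeq promoter windows on GRCh38.p14, which run from 250 bases before to 50 bases after an annotated start, were found for 6 of the 10 genes, with 10 windows in all. They were searched on both strands for TGANNNNGC, the core of an antioxidant response element, and for GCGTG, the core of a xenobiotic response element. The antioxidant core was present in 41.8% of all 35116 windows in the table and the xenobiotic core in 36.5%. Counted by gene, 47.1% held the antioxidant core in at least 1 window and 40.6% the xenobiotic core. A match is therefore common and is a description only. The 160 bases before the start are given for 4 of the windows, written 5′ to 3′ on the strand of the gene. They are shown because CYP4F11 had the largest difference between the lines, EPHX1 held both kinds of letters, CYP1A1 is the classical Ah receptor target and CES2 differed least. In CYP4F11 capitals mark the antioxidant core, in EPHX1 both cores, and in CYP1A1 and CES2 the xenobiotic core. The CYP4F11 stretch is chr19:15934868-15935027 on the minus strand, the EPHX1 stretch chr1:225825194-225825353 on the plus strand, the CYP1A1 stretch chr15:74725529-74725688 on the minus strand and the CES2 stretch chr16:66934311-66934470 on the plus strand.
CYP4F11: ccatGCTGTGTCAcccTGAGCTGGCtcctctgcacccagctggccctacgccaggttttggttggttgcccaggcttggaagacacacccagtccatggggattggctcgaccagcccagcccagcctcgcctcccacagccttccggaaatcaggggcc
EPHX1: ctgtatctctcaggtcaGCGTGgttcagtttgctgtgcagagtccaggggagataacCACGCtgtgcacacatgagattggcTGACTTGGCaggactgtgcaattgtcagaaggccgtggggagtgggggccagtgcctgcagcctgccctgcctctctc
CYP1A1: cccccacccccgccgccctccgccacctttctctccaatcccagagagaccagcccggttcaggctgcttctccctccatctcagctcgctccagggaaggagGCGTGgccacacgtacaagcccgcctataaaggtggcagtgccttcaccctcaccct
CES2: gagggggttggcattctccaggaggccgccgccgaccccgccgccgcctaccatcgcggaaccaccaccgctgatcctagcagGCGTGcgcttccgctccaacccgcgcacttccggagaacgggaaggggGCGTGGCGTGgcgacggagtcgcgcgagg

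In CYP4F11 the antioxidant core had 2 matches, TGAGCTGGC from -144 to -136 and, on the other strand, GCTGTGTCA from -156 to -148. The latter also matched the longer letters TGACNNNGC, which 13.3% of all windows and 16.1% of all genes with a window held. In EPHX1 the match TGACTTGGC, which fits the longer letters too, lay from -78 to -70 of 1 of its 3 annotated starts. The same EPHX1 window held GCGTG from -143 to -139 and its reverse from -103 to -99. CYP1A1 had GCGTG from -57 to -53, and the printed CES2 window had it 4 times before the start, from -238, -77, -29 and -24, of which 3 fall within the printed bases, and its reverse once after the start. The CES2 window of another annotated start held an antioxidant core, GCGCGCTCA, from -237 to -229. The windows of CYP4F3 and CYP2S1 held neither set of letters, nor did the other CYP4F11 window and the other EPHX1 windows.

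**Figure D1:**
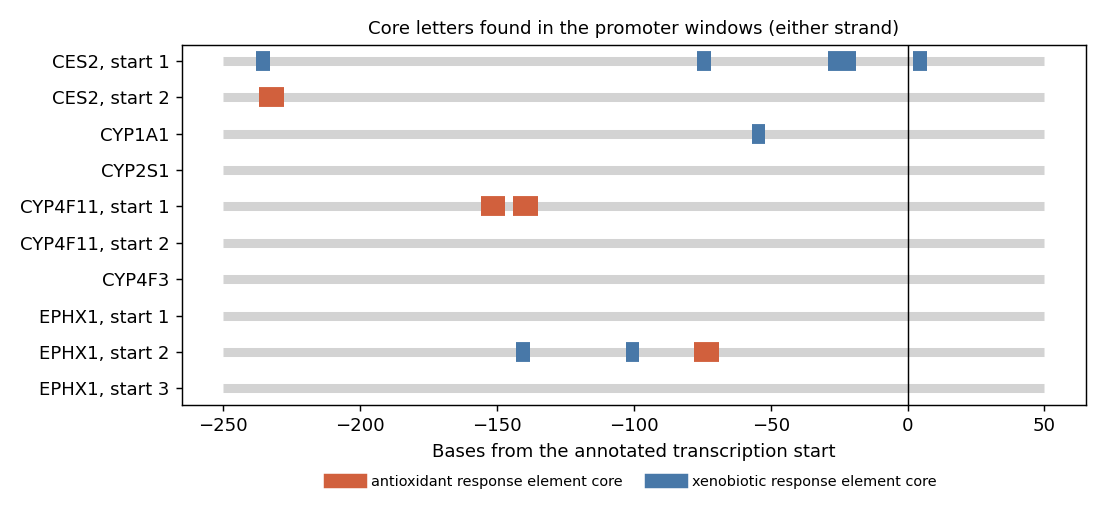
Positions of the antioxidant response element core (orange) and the xenobiotic response element core (blue) on either strand of the 10 promoter windows, each drawn as a grey bar from 250 bases before to 50 bases after an annotated start (x axis, bases from the start). The 2 antioxidant cores of CYP4F11 lie side by side, and CYP2S1 and CYP4F3 hold neither core.

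CYP4F3 and CYP4F11 also share promoter sequence. The CYP4F3 bases from -97 to -22 and the bases from -78 to -3 of the other CYP4F11 start formed an ungapped block of 76 bases, of which 65 were identical (85.5%). They are printed because these are the 2 CYP4F genes that passed the threshold as lower in NRF2null-KYSE70. Capitals mark the 11 bases that differ. No other promoters of the cluster were compared, so whether the likeness is particular to this pair is not known. Any part of it in the fall of the 2 genes was not tested. The CYP4F3 block is chr19:15641215-15641290 on the plus strand and the CYP4F11 block chr19:15934532-15934607 on the minus strand.
CYP4F3: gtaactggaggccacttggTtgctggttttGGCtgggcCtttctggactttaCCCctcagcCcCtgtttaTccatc
CYP4F11: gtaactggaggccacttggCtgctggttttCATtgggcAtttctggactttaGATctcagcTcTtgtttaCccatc

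Of the 10 genes, 8 had a mean of at least 10 normalized counts and entered the fit across all genes (limma), and CYP4F12 and CYP24A1 did not. CES1, CYP4F11, CYP4F3 and EPHX1, or 4 of the 8, passed the threshold (adjusted p under 0.05, log2 fold change of 1 or more in size), all of them lower in NRF2null-KYSE70. Among all 15994 tested genes, 14.7% passed it and 7.43% passed it as lower genes. With the adjusted p alone 7 of the 8 passed, against 57.6% of all tested genes, and for 7 of the 8 no library of 1 line reached into the range of the other, against 63.4%. Because the genes were chosen on this contrast, nothing is read from these shares. The plot of normalized counts by library shows every value.

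**Figure D2:**
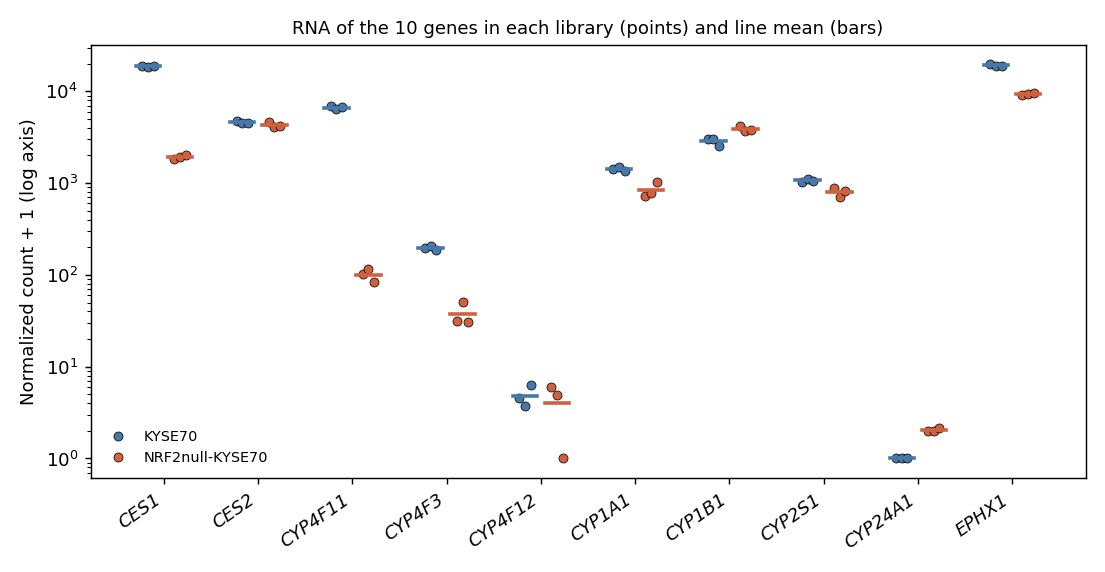
Normalized count plus 1 (y axis, log scale) of the 10 genes (x axis) in each of the 3 KYSE70 libraries (blue) and the 3 NRF2null-KYSE70 libraries (orange), with short bars at the mean of each line. CYP4F11 falls from 6657 to 99.8 normalized counts and CES1 from 18672 to 1914, while the points of CES2 overlap.

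The carboxylesterases parted. CES1 (ENSG00000198848, hg38 chromosome 16, 55802851 to 55833337, minus strand), a serine hydrolase best known from liver that activates ester prodrugs and handles cholesteryl esters, had 18819, 18422 and 18775 normalized counts in KYSE70. In NRF2null-KYSE70 it had 1837, 1899 and 2007. The lines lay far apart, and the 3 libraries of each line lay close together. The means were 18672 ± 218 and 1914 ± 86 (SD, n = 3), so 10.3% of the parental level was left (log2 fold change -3.29, SE 0.0491). CES2 (ENSG00000172831, chromosome 16, 66934444 to 66945096, plus strand), the intestinal form that cleaves irinotecan, had 4745, 4501 and 4494 normalized counts in KYSE70 against 4581, 4103 and 4196 in NRF2null-KYSE70. Its libraries overlapped between the lines, with 93.7% of the parental level in NRF2null-KYSE70 (log2 fold change -0.09, SE 0.0555). The CES2 difference was 0.14 when the median of its chromosome neighbours, -0.24, was subtracted, so its sign depended on that step. Exons of CES2 overlap a gene without a symbol on the same strand, which overlaps exons of CES3 too. Another gene without a symbol overlaps CES2 on the other strand. Reads in these overlaps could not be given to 1 gene with certainty.

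CES1 has a partial copy beside it, the pseudogene CES1P1. Of the 3481 stretches of 100 bases in the annotated CES1 transcripts, 25.4% were also present in CES1P1, so reads from these stretches could have been counted for either gene. CES1P1 differed in the other direction, with 127 ± 34.2 normalized counts in KYSE70 and 208 ± 34.6 in the clone (SD, n = 3; log2 fold change 0.73, SE 0.208, limma adjusted p = 0.00894). CES3, a further carboxylesterase, had 216 ± 8.05 and 129 ± 17.2 normalized counts (SD, n = 3; log2 fold change -0.75, SE 0.16, limma adjusted p = 0.0014), and CES4A and CES5A had no read in any library. Counted per kilobase of exon, CES1 made up 87.3% to 87.8% of the summed carboxylesterase level of the 5 genes in KYSE70 and 41.5% to 45.6% in NRF2null-KYSE70. CES2 took 11.6% to 12.1% of this sum in KYSE70 and 52.4% to 56.8% in NRF2null-KYSE70. The leading carboxylesterase RNA was thus CES1 in the parental line and CES2 in the clone, while the sum per kilobase went from 7160 to 7338 down to 1437 to 1509 normalized counts.

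CYP4F11 (ENSG00000171903, chromosome 19, 15912367 to 15934867, minus strand), a fatty acid omega-hydroxylase, stood out. Its normalized counts were 6841, 6448 and 6681 in the KYSE70 libraries and 101, 116 and 82.2 in the NRF2null-KYSE70 libraries. NRF2null-KYSE70 kept 1.5% of the parental level, with means of 6657 ± 197 and 99.8 ± 16.8 (SD, n = 3). The level in KYSE70 was 66.7 times that in NRF2null-KYSE70, and the log2 fold change was -6.06 (SE 0.111). It was number 49 of the 15994 tested genes counted from the most negative log2 fold change. No stretch of 100 bases in its transcripts was present in another annotated CYP4F gene or pseudogene.

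CYP4F3 (ENSG00000186529, chromosome 19, 15640897 to 15662825, plus strand), which hydroxylates leukotriene B4, lies in the same gene cluster. It had 196, 203 and 187 normalized counts in KYSE70 against 30.4, 49 and 29.7 in NRF2null-KYSE70. Every KYSE70 library was above every NRF2null-KYSE70 library, although the 3 libraries of the clone were uneven. The means were 195 ± 8.28 and 36.4 ± 11 (SD, n = 3), so NRF2null-KYSE70 held 18.6% of the parental amount (log2 fold change -2.43, SE 0.239). Leaving out any 1 library gave values between -2.66 and -2.31. CYP4F2 shared 1.56% of the CYP4F3 stretches of 100 bases.

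CYP4F12 (ENSG00000186204, chromosome 19, 15673018 to 15697174, plus strand), a further member of the cluster, was barely present. It had 4, 3 and 5 reads in the KYSE70 libraries and 5, 4 and 0 in the NRF2null-KYSE70 libraries. The ratio of NRF2null-KYSE70 to KYSE70 was 0.784, with an exact 95% counting interval of 0.292 to 2.03, so a difference was not detectable at this depth. The other genes of the cluster were near the bottom of the range too. CYP4F2 had a mean of 17.3 normalized counts in KYSE70 against 10.5 in NRF2null-KYSE70 (log2 fold change -0.76, SE 0.603, limma adjusted p = 0.304), CYP4F22 had 17.9 in both (0.14, SE 0.511, limma adjusted p = 0.838), and CYP4F8 had 0.351 and 1.35 and was not tested. In this cluster of paralogs, CYP4F11 and CYP4F3 were thus the genes with both an appreciable level in KYSE70 and a fall past the threshold. Whether the CYP4F genes differed from one another in their change was not tested.

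The 3 P450s that act on foreign aromatic compounds and retinoids did not move together. CYP1A1 (ENSG00000140465, chromosome 15, 74719542 to 74725536, minus strand), which oxidizes polycyclic aromatic hydrocarbons, had 1434, 1488 and 1344 normalized counts in KYSE70 against 721, 776 and 1017 in NRF2null-KYSE70. The groups did not overlap, but the clone was uneven, since the third of its libraries was well above the others. The means were 1422 ± 72.3 and 838 ± 158 (SD, n = 3), 58.9% of the parental level, and the log2 fold change of -0.78 (SE 0.112) did not reach the cut-off of 1. Leaving out each library in turn gave -0.92 to -0.68. The genes around CYP1A1 had a median log2 fold change of 0.28, and after subtraction of this value CYP1A1 stood at -1.06.

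CYP1B1 (ENSG00000138061, chromosome 2, 38066973 to 38109902, minus strand), the extrahepatic relative of CYP1A1, went the other way. It had 3017, 3037 and 2565 normalized counts in KYSE70 against 4194, 3728 and 3820 in NRF2null-KYSE70. It was the only tested gene among the 8 with a positive log2 fold change, 0.45 (SE 0.0726), other than CES2 after subtraction of its neighbours' median, and its means were 2873 ± 267 and 3914 ± 247 (SD, n = 3), or 136% of the parental level. Its exons overlap those of RMDN2-AS1 on the same strand and of CYP1B1-AS1 and RMDN2 on the other strand, and reads in the overlaps could not be told apart without strand. CYP1A2, which lies beside CYP1A1 and is mainly a liver enzyme, had 1 read in the 6 libraries together.

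CYP2S1 (ENSG00000167600, chromosome 19, 41193210 to 41207539, plus strand), an epithelial P450 that also oxidizes retinoic acid, had 1030, 1119 and 1064 normalized counts in KYSE70 against 881, 707 and 815 in NRF2null-KYSE70. The lines did not overlap, yet the gap was small, with means of 1071 ± 45.2 and 801 ± 88 (SD, n = 3). The clone held 74.8% of the KYSE70 amount (log2 fold change -0.42, SE 0.0907).

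CYP24A1 (ENSG00000019186, chromosome 20, 54153446 to 54173986, minus strand), the vitamin D 24-hydroxylase, had no read in any KYSE70 library and 1 read in each NRF2null-KYSE70 library. Both lines were at or under the floor of 3 reads per library, so no fold change is given.

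EPHX1 (ENSG00000143819, chromosome 1, 225810124 to 225845563, plus strand), the microsomal epoxide hydrolase that turns epoxides of drugs and aromatic hydrocarbons into diols, was the most abundant of the 10 per kilobase in both lines. Its normalized counts were 19667, 18947 and 18866 in KYSE70 and 9116, 9459 and 9597 in NRF2null-KYSE70. The libraries of each line were tightly grouped and the lines were well apart. The means were 19160 ± 441 and 9391 ± 248 (SD, n = 3), so 49% of the parental level was left (log2 fold change -1.03, SE 0.0443). This value lies just past the cut-off of 1, whereas that of CYP1A1, -0.78, lies short of it. EPHX1 nevertheless stayed past the threshold under all 17 alternative settings, with values from -1.15 to -1.01. An exon of EPHX1 overlaps TMEM63A, a gene on the other strand, so reads there could not be told apart without strand.

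Levels were compared between the genes per kilobase of exon, as normalized counts per kb. In KYSE70 the order was EPHX1 with 7738 ± 178, CES1 with 6358 ± 74.2, CYP4F11 with 1787 ± 53, CES2 with 857 ± 26.7, CYP1B1 with 477 ± 44.3, CYP1A1 with 423 ± 21.5, CYP2S1 with 395 ± 16.6 and CYP4F3 with 35.4 ± 1.5 (SD, n = 3). CYP4F12 stood at 0.756 and CYP24A1 at 0. The libraries of CYP1B1 and CYP1A1 overlapped, as did those of CYP1A1 and CYP2S1, and the other neighbours in this order did not. In NRF2null-KYSE70 the order was EPHX1 with 3793 ± 100, CES2 with 804 ± 47.4, CES1 with 652 ± 29.3, CYP1B1 with 650 ± 41, CYP2S1 with 295 ± 32.4, CYP1A1 with 249 ± 46.9, CYP4F11 with 26.8 ± 4.52 and CYP4F3 with 6.59 ± 1.99 (SD, n = 3). Here CES1 overlapped with CYP1B1, CYP2S1 with CYP1A1, and CYP4F12 with CYP24A1. EPHX1 led in both lines, and CYP4F11 dropped from the third place to the seventh.

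Seen over the whole P450 family of 57 genes, CYP4F11 carried 43.9% to 46% of the summed level per kb in KYSE70 and 0.981% to 1.6% in NRF2null-KYSE70. CYP1B1 carried 10.9% to 12.8% in KYSE70 and 28.2% to 31.9% in NRF2null-KYSE70, where it was the leading P450. CYP2S1 carried 9.46% to 10.5% and 13.4% to 14.8%, although its own level was lower in the clone, and CYP1A1 held 10.2% to 11.2% and 9.77% to 13.4%. The retinoic acid hydroxylase CYP26A1, named after its values were seen, took 6.68% to 7.39% and 19% to 21.9%. The sum over the family was 3903 to 4011 normalized counts per kb in KYSE70 and 1939 to 2250 in NRF2null-KYSE70. Of the 57 genes 34 were below the filter, 15 of them with no read in any library.

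**Figure D3:**
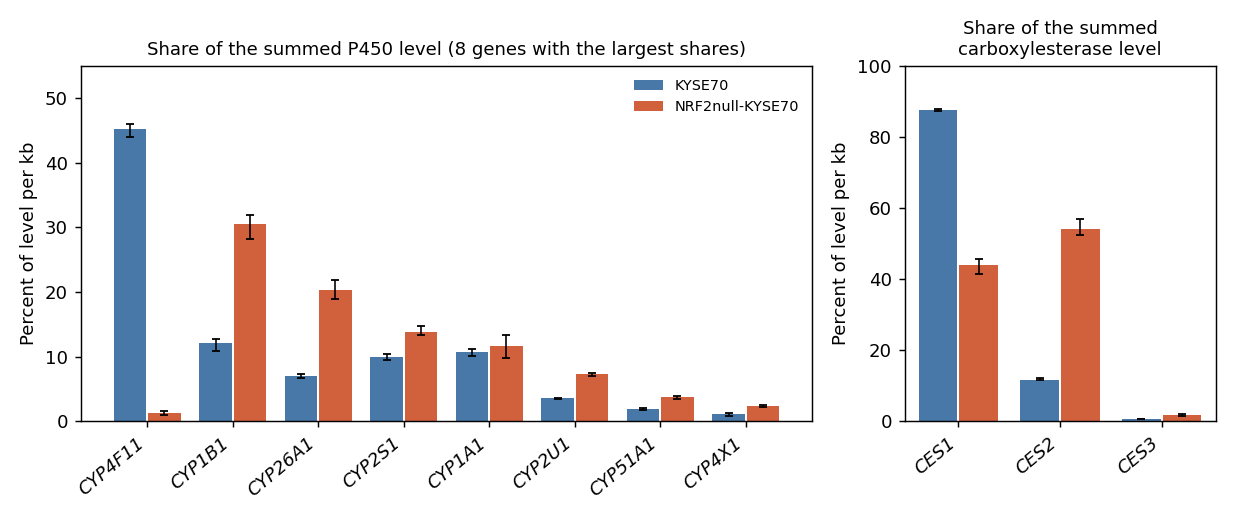
Share of the summed level per kilobase (y axis, percent) of the 8 P450 genes with the largest shares (left) and of CES1, CES2 and CES3 (right) in KYSE70 (blue) and NRF2null-KYSE70 (orange). Bars are means of 3 libraries and error bars run from the lowest to the highest library. CYP4F11 leads the P450s in KYSE70 with 43.9% to 46% and CYP1B1 leads in NRF2null-KYSE70 with 28.2% to 31.9%.

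Since a clone can gain or lose stretches of chromosome, each difference was set beside the median log2 fold change of the 20 nearest tested genes on either side. This median was 0.12 around CES1 and -0.02 around CYP4F11, against differences of -3.29 and -6.06 for the genes themselves. CES1, CYP4F11, CYP4F3 and EPHX1 were past the threshold with this median subtracted as well. Such a median cannot show a gain or loss limited to the gene itself or to a short stretch around it. Any part of gained or lost chromosome stretches in these differences was not tested. Bulk RNA cannot tell fewer cells with a transcript from less of it per cell.

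**Figure D4:**
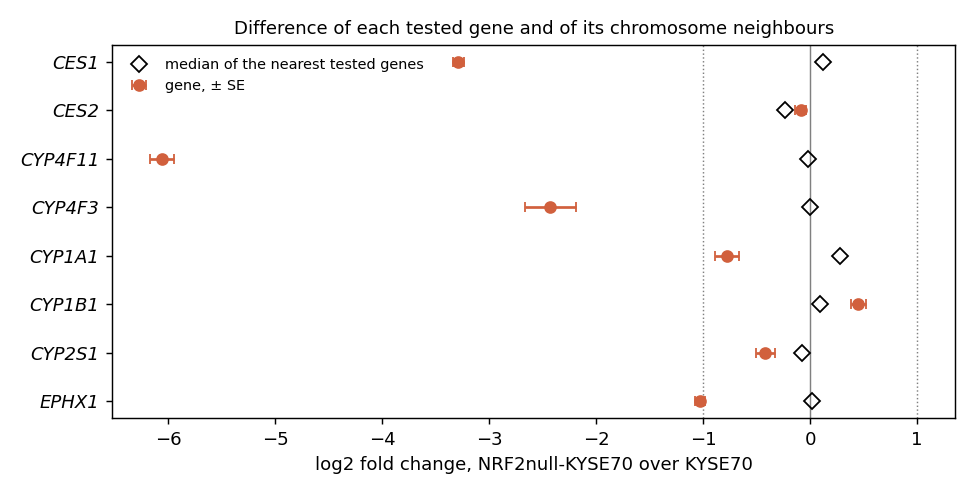
Log2 fold change, NRF2null-KYSE70 over KYSE70 (x axis), of the 8 tested genes (orange points, bars are SE) and the median of the 20 nearest tested genes on either side (open diamonds). Dotted lines mark the cut-off of 1 in either direction. The diamonds lie between -0.24 and 0.28, and CYP4F11 and CES1 lie far to the left of theirs.

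Genes around these enzymes were read from 9 lists of 173 genes. Of the 91 that were tested, 12 passed the threshold as lower and 12 as higher in NRF2null-KYSE70. The background over all tested genes was 7.43% lower and 7.23% higher. For the 91 genes the median log2 fold change was 0.07, beside -0.01 for all genes. With the adjusted p alone 29 were lower and 33 higher, where the background over all tested genes was 28.3% lower and 29.3% higher. Counts on the adjusted p alone, where given for a list, are to be set beside these shares. The lists were chosen with earlier results of these data known, so nothing is read from the list counts.

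Other esterases and epoxide hydrolases gave 2 lower and 1 higher of 9 tested genes, with a median of -0.33. BCHE, butyrylcholinesterase, had 551, 520 and 562 normalized counts in KYSE70 against 8.11, 0 and 1.14 in NRF2null-KYSE70. It was close to lost in the clone, at -7.66 on the log2 scale (SE 0.604, limma adjusted p = 2.84e-07), a value that ranged from -9.08 to -6.22 with the pseudocount. EPHX2, the soluble epoxide hydrolase that acts on fatty acid epoxides, fell beside EPHX1, from 1386 ± 106 to 589 ± 32.9 normalized counts (SD, n = 3; log2 fold change -1.23, SE 0.0846, limma adjusted p = 7.78e-08). Its neighbours had a median of -0.63, and with this subtracted EPHX2 stood at -0.60 and no longer passed. NCEH1, a neutral cholesterol ester hydrolase, rose from 868 ± 55.3 to 3893 ± 288 (SD, n = 3; log2 fold change 2.16, SE 0.0731, limma adjusted p = 1.24e-10).

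Among the other P450s 6 were lower and 2 higher of 18 tested genes, with a median of -0.09. CYP2R1, a vitamin D 25-hydroxylase, fell from 251 ± 29.1 to 35.2 ± 5.45 normalized counts (SD, n = 3; log2 fold change -2.80, SE 0.209, limma adjusted p = 1.66e-07). CYP4V2, a fatty acid hydroxylase outside the CYP4F cluster, fell from 379 ± 20.4 to 172 ± 25.2 (SD, n = 3; log2 fold change -1.14, SE 0.142, limma adjusted p = 1.76e-05). CYP51A1, the lanosterol demethylase of cholesterol synthesis, had overlapping libraries and a log2 fold change equal to 0.07 (SE 0.129, limma adjusted p = 0.649). Of the genes that pass electrons to P450s, 10 were tested, 1 passed the threshold as a higher gene, and the median was 0.20. With the adjusted p alone 2 were lower and 6 higher. POR, the reductase that supplies the microsomal P450s, had 5923 ± 206 and 7096 ± 403 normalized counts (SD, n = 3; log2 fold change 0.26, SE 0.0539, limma adjusted p = 0.00115), and its sign turned to -0.12 with the neighbours' median subtracted.

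In the Ah receptor pathway 1 of 11 tested genes passed the threshold, as a higher gene, and the median was 0.00. With the adjusted p alone 3 were lower and 3 higher. AHR, the receptor, did not reach the cut-off on the fold change, with 5880 ± 190 and 9582 ± 417 normalized counts (SD, n = 3; log2 fold change 0.70, SE 0.0498, limma adjusted p = 1.01e-07). Its partner ARNT had a log2 fold change equal to 0.08 (SE 0.0517, limma adjusted p = 0.182), or 0.34 with its neighbours' median of -0.26 subtracted (limma adjusted p = 9.91e-05), and the repressor AHRR was below the filter. TIPARP, which an active Ah receptor induces, was higher, with 1201, 1212 and 1120 normalized counts in KYSE70 against 3285, 3320 and 3233 in NRF2null-KYSE70 (log2 fold change 1.48, SE 0.0592, limma adjusted p = 5.84e-10). With the median of its neighbours subtracted it stood at 0.95, short of the cut-off. Ah receptor targets thus lay on both sides of 0, with CYP1A1 at -0.78, CYP1B1 at 0.45 and TIPARP at 1.48. On the same list UGT1A6 stood at -0.79 (SE 0.074, limma adjusted p = 1.4e-06) and ALDH3A1 at 0.08 (SE 0.0509, limma adjusted p = 0.177). Exons of UGT1A6 overlap those of other UGT1A genes on the same strand, so its reads could not be given to UGT1A6 with certainty. UGT1A6 and ALDH3A1 were named after their values were seen. NQO1, a target of both the Ah receptor and NRF2, had a log2 fold change equal to -0.93 (SE 0.0531, limma adjusted p = 1.43e-08), short of the cut-off.

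In the vitamin D pathway 2 of 4 tested genes passed the threshold, both lower, with a median of -0.78. With the adjusted p alone 3 were lower, VDR, RXRA and LRP2, and 1 higher, RXRB. VDR, the receptor that drives CYP24A1, fell from 2046 ± 72.8 to 893 ± 69.9 normalized counts (SD, n = 3; log2 fold change -1.20, SE 0.0746, limma adjusted p = 3.17e-08), while CYP24A1 stayed at the floor in both lines. Its partner RXRA had a log2 fold change equal to -0.35 (SE 0.0565, limma adjusted p = 1.47e-04), which turned to 0.05 with the neighbours' median of -0.41 subtracted. CYP27B1, which makes the active hormone that CYP24A1 breaks down, had 152 ± 18.7 and 84.6 ± 8.92 normalized counts (SD, n = 3; log2 fold change -0.84, SE 0.19, limma adjusted p = 0.00221). With the neighbours' median of -0.61 subtracted it stood at -0.23 (limma adjusted p = 0.291). CYP27B1 is counted on the list of other P450s and not among the 4 genes counted here. Among xenobiotic receptors 1 of 7 tested genes passed the threshold, as a higher gene, with a median of 0.40.

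The eicosanoid enzymes, which make and break the lipids that CYP4F enzymes hydroxylate, gave 1 lower and 2 higher of 14 tested genes, with a median of -0.16. PTGS2, the inducible cyclooxygenase, had 110, 88 and 96 normalized counts in KYSE70 against 2318, 2141 and 2344 in NRF2null-KYSE70 (log2 fold change 4.52, SE 0.11, limma adjusted p = 7.04e-12). PTGES, the prostaglandin E synthase downstream of it, went the other way, from 263 ± 18 to 44.3 ± 12.4 (SD, n = 3; log2 fold change -2.57, SE 0.22, limma adjusted p = 5.95e-07). ALOXE3, an epidermal lipoxygenase, rose by 1.12 on the log2 scale (SE 0.181, limma adjusted p = 1.68e-04). PTGR1, which inactivates leukotriene B4, had a log2 fold change equal to -0.81 (SE 0.104, limma adjusted p = 2.44e-05).

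Conjugating enzymes, which take over the products of P450s and hydrolases, gave 1 lower and 1 higher of 12 tested genes, with a median of -0.02. The lower one was NAT1, an arylamine N-acetyltransferase, with 246 ± 42.6 and 98.6 ± 10 normalized counts (SD, n = 3; log2 fold change -1.30, SE 0.178, limma adjusted p = 4.08e-05), which stood at -0.85 after subtraction of its neighbours' median. The fluoropyrimidine enzymes were included because the study treated these lines with 5-FU and because carboxylesterases take part in the activation of capecitabine. In the study 5-FU lowered viability more in NRF2null-KYSE70 than in KYSE70, and any part of these enzymes in that was not tested. Of 8 tested genes 3 passed the threshold, each higher in NRF2null-KYSE70, with a median of 0.20. With the adjusted p alone 1 was lower and 4 were higher. DPYD, which breaks down 5-FU, rose from 1141 ± 125 to 4552 ± 198 normalized counts (SD, n = 3; log2 fold change 2.00, SE 0.0765, limma adjusted p = 3.82e-10). UPP1, uridine phosphorylase, rose from 1967 ± 109 to 11595 ± 1046 (SD, n = 3; log2 fold change 2.56, SE 0.0672, limma adjusted p = 1.42e-11).

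TXNRD1, the thioredoxin reductase that is a well-known NRF2 target, had a log2 fold change equal to -0.65 (SE 0.0466, limma adjusted p = 1.19e-07). Its neighbours had a median of -0.50, and with this subtracted TXNRD1 stood at -0.15 (limma adjusted p = 0.0173). The differences of CYP4F11, CES1 and CYP4F3 were larger in size than those of TXNRD1 and NQO1 with or without this step. No test was made between genes. CYP4F11, CES1 and CYP4F3 were chosen with their differences known, whereas TXNRD1 and NQO1 were named whatever their values. Nothing is therefore read from this order.

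**Figure D5:**
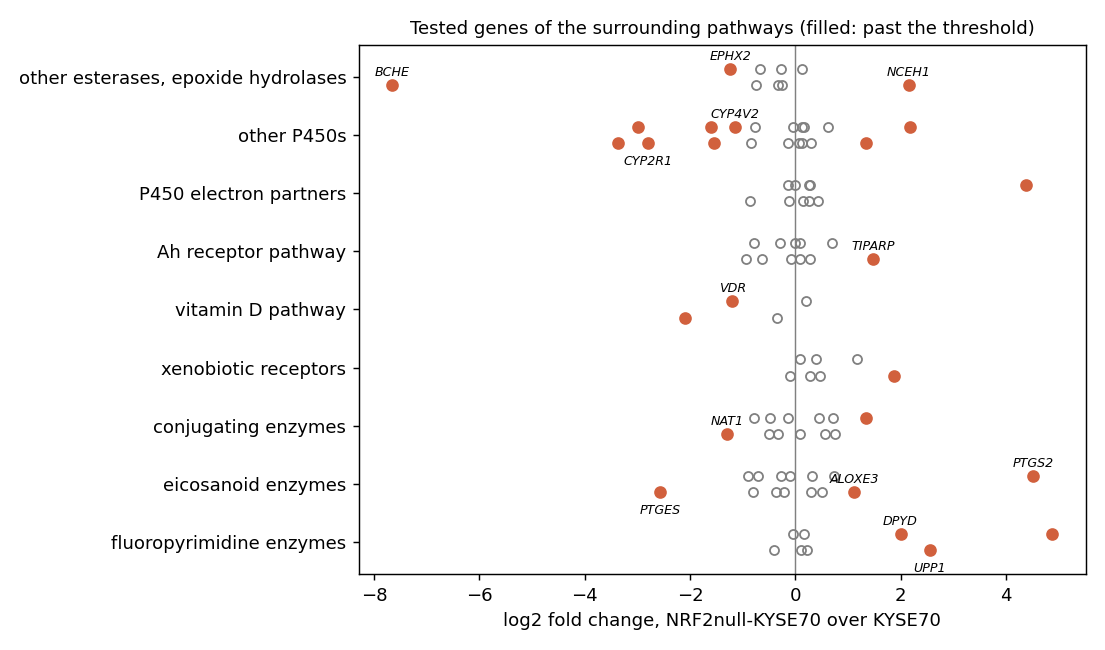
Log2 fold change, NRF2null-KYSE70 over KYSE70 (x axis), of the tested genes of the 9 surrounding lists (rows). Filled points passed the threshold (limma adjusted p under 0.05 and a log2 fold change of at least 1 in size), and open points did not. Filled points lie on both sides of 0, from -7.66 for BCHE to 4.89 for UPB1.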

How the data were processed

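Total RNA of 3 KYSE70 and 3 NRF2null-KYSE70 libraries was sequenced. The authors trimmed reads with cutadapt (1.12), aligned them with STAR (2.6.90c) to hg38 and counted them with featureCounts (1.5.1), versions being from the submitters' processing notes. Use of strand is not given in the sources used here. The authors deposited a signal of DESeq2-normalized counts per gene. Whole reads were recovered from 100% of values (tolerance 0.01). Columns carry no replicate number, so libraries are numbered by table order.

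Genes averaging at least 10 were tested by limma (3.58.1, mean-variance trend, R 4.3.3) on log2(normalized count + 1), two-sided, with Benjamini-Hochberg adjustment. Fold changes on this scale understate those of low genes. Libraries of a line differed by more than sampling noise (chi-square per degree of freedom 4.59 to 23.4). In NRF2null-KYSE70, library 1 stood apart, at 23.4 against library 2 and 23 against library 3. Libraries 2 and 3 of that line were at 4.59, and pairs of KYSE70 libraries were at 6.47 to 12.5. The code was checked on simulated reads. Alternatives were other pseudocounts, filters and scalings, limma without the trend, edgeR (4.0.16) and DESeq2 (1.42.0) on recovered reads, each library left out, and local centring. Exon lengths and overlaps came from GENCODE v44.

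Members and lists were chosen with earlier results of these data known. Named genes are NFE2L2, the members and their cluster relatives, 12 pathway genes and, per list, up to 6 called genes whose mean reached 100 and whose lines did not overlap. Others were named after their values were seen. 1 marker gene is not reported here. Intervals cover counting error only.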

Additional observations from a re-analysis of the deposited data

How the results depend on the processing

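CES1, CYP4F11, CYP4F3 and EPHX1 kept their direction and stayed past the threshold under each of the 17 alternative settings, and local centring added CYP1A1 at -1.06. Genes past the threshold numbered 2344, 1511 with a filter at a mean of 50, 9206 on the adjusted p alone and 2228 to 2346 with each library left out. On the adjusted p alone the members past the threshold were 7 and the list genes 29 lower and 33 higher. The lower share of calls was 50.7%, and 55.9% with total scaling, which moved the median of all genes to -0.08. Local centring turned RXRA to 0.05, POR to -0.12 and CYP51A1 to -0.16 and ended the calls of EPHX2 (-0.60), TIPARP (0.95) and NAT1 (-0.85). It also turned CES2 to 0.14. CYP51A1 was at -0.00 with total scaling and at -0.00 (without NRF2null-KYSE70 library 1) to 0.18 with a library left out. CYP4F22 was at -0.00 with DESeq2, -0.38 without KYSE70 library 2, -0.04 without NRF2null-KYSE70 library 3 and 0.43 without KYSE70 library 3. NQO1 passed at -1.03 with quantile normalization and -1.01 with total scaling. The cause was not tested. No paired analysis was possible because the columns carry only the name of the line. Depth limits CYP4F12 and CYP24A1, which had at most 5 reads and 1 read per library.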

Other observations

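The remaining genes past the threshold on the surrounding lists had means under 100 normalized counts over the 6 libraries together and were named after their values were seen. Thromboxane synthase, TBXAS1, a P450 that does not need a reductase, had 165, 123 and 247 normalized counts in KYSE70 and 10.1, 18.6 and 20.5 in NRF2null-KYSE70 (log2 fold change -3.36, SE 0.339, limma adjusted p = 2.78e-06). The aromatase gene CYP19A1 had 80, 49.9 and 58 against 15.2, 23.5 and 20.5 (log2 fold change -1.61, SE 0.33, limma adjusted p = 0.00106). CYP39A1 and CYP2J2 were lower too, with log2 fold changes of -2.99 (limma adjusted p = 0.00547) and -1.54 (limma adjusted p = 0.049). CYP4B1 and CYP2E1 were higher, at 1.35 (limma adjusted p = 0.0057) and 2.19 (limma adjusted p = 0.0126).

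The cytochrome b5 gene CYB5A, whose product hands electrons to some P450s, was listed at 0 in the 3 KYSE70 libraries and had 25.4, 26.5 and 11.4 normalized counts in NRF2null-KYSE70. PPARG, a lipid-sensing nuclear receptor, had 16.9, 60.8 and 54.8 against 129, 173 and 137 (log2 fold change 1.88, SE 0.394, limma adjusted p = 0.00121). UPB1, the last enzyme of pyrimidine breakdown after DPYD, had 2.67, 0 and 0 against 60.9, 51 and 28.5 (limma adjusted p = 5.91e-05). The endocytic receptor LRP2 had a log2 fold change of -2.09 (limma adjusted p = 0.00801) and the sulfotransferase SULT1A2 one of 1.35 (limma adjusted p = 0.00496).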
